A study of Mus musculus with 16 samples.

Results

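The genes described here are 43 genes of DNA replication and nucleotide synthesis, read in CD8 T cells sorted from mouse mammary tumours. They were taken by symbol from a count table of 24028 genes, each symbol matched exactly 1 row, and all 43 passed the filter on low counts that left 17414 genes for testing. They fall into 8 groups by role: licensing and origin factors (Orc1, Orc6, Cdc6, Cdt1), the MCM helicase (Mcm2 to Mcm7), helicase activation (Mcm10, Cdc45, Gins1 to Gins4), the clamp and its loader (Pcna, Rfc1 to Rfc5), polymerases and primase (Pola1, Pola2, Prim1, Prim2, Pold1, Pold2, Pole, Pole2), the flap nuclease, ligase and RPA (Fen1, Lig1, Rpa1 to Rpa3), nucleotide synthesis (Rrm1, Rrm2, Tyms, Tk1, Dut), and Uhrf1 with the E cyclins Ccne1 and Ccne2.

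All animals were BALB/c mice carrying tumours of TS/A, a transplantable mouse mammary adenocarcinoma line, placed in the mammary pad. The entinostat (ENT) animals received 20 mg/kg of this inhibitor of class I histone deacetylases every day, and the vehicle (Con) animals received vehicle, in both cases from day 7 after injection of the tumour cells. Tumours were taken at day 10, after 3 days of dosing, or at day 17, after 10 days. Live cells positive for CD45.2 and CD8 and negative for CD4 were sorted, and each of the 4 groups has 4 libraries: entinostat day 10, vehicle day 10, entinostat day 17 and vehicle day 17. Whether each library is its own mouse is not stated in the labels, and the p-values therefore reflect variation among these libraries only, some of which may be technical. The tumour is 1 transplanted line in 1 strain, which limits the groups as a model.

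Before S phase the origin recognition complex, Cdc6 and Cdt1 load the MCM2 to MCM7 hexamer onto DNA, and Cdc45 and the GINS complex then join it to form the moving helicase. Primase and polymerase alpha start each strand, replication factor C loads the PCNA clamp, polymerases delta and epsilon extend, and the flap nuclease Fen1 and ligase Lig1 join the fragments of the lagging strand. Ribonucleotide reductase, thymidylate synthase, thymidine kinase and dUTPase supply and guard the deoxynucleotide pool, and many of these genes are transcribed in the G1 and S phases under E2F factors. CD8 T cells that have met antigen divide rapidly, which makes this gene set a common readout of cycling in such cells.

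The promoters of 5 members, 4 that were higher with entinostat at day 17 and Cdt1 that was not, are shown for their E2F-type words. RefSeq windows of 300 bases (GRCm38.p6), running from 250 bases before to 50 bases after an annotated start, were found for 35 of the 43 members; Mcm4, Gins1, Gins2, Gins4, Rfc2, Prim2, Pole and Ccne2 had no window. The words TTTCCCGC, TTTCGCGC, TTTGCCGC and TTTGGCGC, searched on both strands, were present in 14 of the 35 (40%), against 704 of 27025 genes with a window (2.6%). The CCAAT box was present in 22 members (62.9%) and in 41.1% of all genes, and the 6-letter word TTTGAA in 5 members (14.3%) and in 20.2% of all genes. By role, the E2F-type word was found in 4 of 5 MCM genes, 3 of 4 licensing genes, 3 of 6 polymerase and primase genes and 0 of 5 nucleotide synthesis genes with a window. The windows of Mcm3 (chr1:20820263-20820562, minus strand), Mcm5 (chr8:75109259-75109558, plus strand), Mcm6 (chr1:128359656-128359955, minus strand), Cdc6 (chr11:98907901-98908200, plus strand) and Cdt1 (chr8:122567765-122568064, plus strand) follow 5′ to 3′ on the gene's strand, with the E2F-type words in capitals.
Mcm3: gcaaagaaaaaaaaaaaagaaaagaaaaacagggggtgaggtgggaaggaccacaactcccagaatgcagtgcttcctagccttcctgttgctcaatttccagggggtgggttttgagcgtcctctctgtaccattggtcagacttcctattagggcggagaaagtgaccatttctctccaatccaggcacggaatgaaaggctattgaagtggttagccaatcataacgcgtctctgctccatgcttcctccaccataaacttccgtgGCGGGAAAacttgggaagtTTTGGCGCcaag
Mcm5: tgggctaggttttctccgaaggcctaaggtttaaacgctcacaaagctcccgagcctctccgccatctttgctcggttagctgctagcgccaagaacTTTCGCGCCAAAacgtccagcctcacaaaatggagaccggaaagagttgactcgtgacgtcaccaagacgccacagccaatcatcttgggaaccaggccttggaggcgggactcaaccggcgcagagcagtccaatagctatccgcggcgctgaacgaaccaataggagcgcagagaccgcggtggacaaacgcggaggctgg
Mcm6: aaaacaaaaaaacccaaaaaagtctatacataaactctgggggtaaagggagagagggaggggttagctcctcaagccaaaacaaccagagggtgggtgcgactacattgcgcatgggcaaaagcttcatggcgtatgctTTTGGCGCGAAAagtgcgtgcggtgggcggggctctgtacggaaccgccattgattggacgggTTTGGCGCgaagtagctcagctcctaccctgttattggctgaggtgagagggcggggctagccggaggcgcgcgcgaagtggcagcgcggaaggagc
Cdc6: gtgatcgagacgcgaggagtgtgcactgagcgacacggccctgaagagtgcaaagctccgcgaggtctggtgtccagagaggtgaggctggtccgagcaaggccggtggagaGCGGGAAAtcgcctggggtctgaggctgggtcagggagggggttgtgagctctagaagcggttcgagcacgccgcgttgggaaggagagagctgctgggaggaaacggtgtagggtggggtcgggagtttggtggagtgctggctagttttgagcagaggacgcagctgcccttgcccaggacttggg
Cdt1: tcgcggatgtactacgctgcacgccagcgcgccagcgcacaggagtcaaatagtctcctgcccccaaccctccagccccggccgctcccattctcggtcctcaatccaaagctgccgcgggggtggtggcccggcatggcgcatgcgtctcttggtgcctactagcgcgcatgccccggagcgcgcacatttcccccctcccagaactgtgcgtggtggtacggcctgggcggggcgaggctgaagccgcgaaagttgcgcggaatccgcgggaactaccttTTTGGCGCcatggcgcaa
In Mcm5 and Mcm6 a pair of words on opposite strands overlap and form 1 capital run, 153 and 149 bases upstream of the start in Mcm5 and 110 and 106 bases upstream in Mcm6, which has another word 47 bases upstream. In Cdc6 the word lies 138 bases upstream of the start of its window, while those of Mcm3 (20 and 39 bases) and Cdt1 (33 bases) lie downstream. The Cdc6 window begins at 98907901, past the first listed base of the gene, 98907709. Its word therefore lies inside the gene as listed here. A match of letters is a description of the window and not evidence of binding. In the entinostat against vehicle comparison at day 17, described next, 7 of the 13 higher members with a window and 7 of the 22 others with a window held a word.

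Total counts ran from 2639019 to 5709243 in entinostat day 10 libraries, from 3640768 to 4227704 in vehicle day 10 libraries, from 554593 to 3530961 in entinostat day 17 libraries and from 2842099 to 6975904 in vehicle day 17 libraries. Members had between 6 and 1480 counts in any library, so the counting error is large for the lowest of them. The shallowest library, entinostat day 17 replicate 3, stands apart by depth; over the members its median log2 ratio to the other 3 libraries of its group was -0.11, with 8 members above and 16 below their range. Counts of an abundant gene grew little with depth: Actb, a cytoskeletal actin, had 1618 counts in the shallowest library and 3265 in the deepest, vehicle day 17 replicate 1, whose total was 6975904. Mean totals were 2374000 in entinostat day 17 libraries and 4393000 in vehicle day 17 libraries, so such compression can move CPM between groups of unlike depth, and its part in the results was not tested. The T cell markers with a row, Cd3d, Cd3e, Cd3g, Cd2, Lck, Cd8a and Cd8b1, were all counted in each group, with summed medians of 2248, 2613, 2504 and 2102 CPM in entinostat day 10, vehicle day 10, entinostat day 17 and vehicle day 17 libraries. Gene positions are those of RefSeq on GRCm38.p6. Levels are given as CPM (counts scaled to a common library size after TMM), in the order of replicates 1 to 4, with means ± SD over 4 libraries, and changes as log2 fold changes ± SE with the adjusted p of edgeR's quasi-likelihood test over all 17414 genes.

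After 10 days of entinostat, many replication genes were higher in the sorted cells than with vehicle. At day 17, 15 of the 43 members (34.9%) were higher and 0 were lower at an adjusted p under 0.05, where 5.29% of all tested genes were higher and 13.0% were lower. The median log2 fold change of the 43 was 0.51, against -0.01 over all tested genes and -0.22 over the 9772 genes of at least 16 CPM, and 38 members were on the positive side. All 6 MCM genes, both subunits of ribonucleotide reductase, Cdc6, Mcm10, Pola1, Prim1, Pole, Uhrf1 and Ccne1 were the members past the threshold. All 4 entinostat libraries lay above all 4 vehicle libraries for 14 members, which include Tyms and Rfc1 that did not pass; 10.8% of tested genes did so in that direction. Of the 15, Mcm2, Pola1 and Ccne1 overlapped between the groups. The call held in each of the alternative fits for 10 of the 15, the exceptions being Mcm2, Mcm10, Prim1, Pole and Ccne1.

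**Figure D1:**
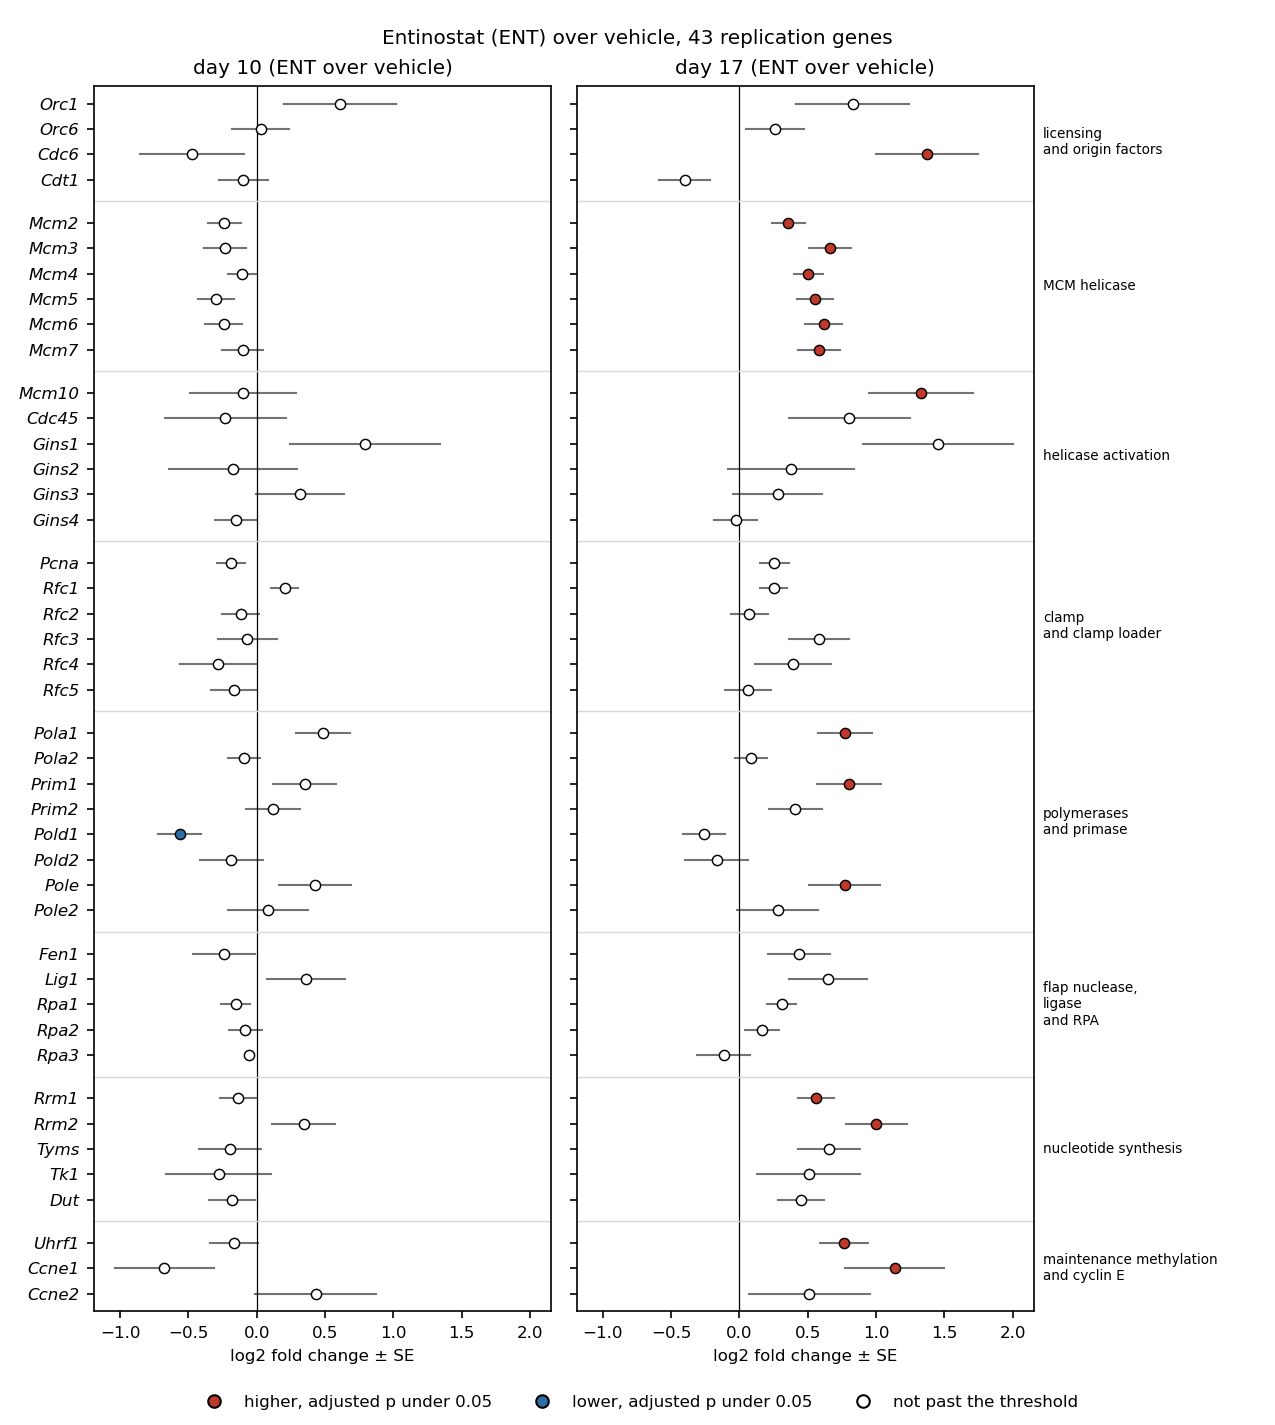
Log2 fold change of entinostat over vehicle with its SE for each of the 43 genes by role, at day 10 (left) and day 17 (right); filled points passed an adjusted p of 0.05, and Rpa3 at day 10 has no SE. At day 17 there are 15 filled points, all to the right of 0, and at day 10 there is 1, Pold1, to the left.

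Among licensing factors, 1 of 4 was higher at day 17. Cdc6, the loader ATPase that brings the helicase to origins (chromosome 11, 98907709 to 98923942, Entrez 23834), had 48.9, 47.1, 59.7 and 40.7 CPM in entinostat day 17 libraries, against 14.6, 17.5, 31.4 and 11.7 CPM in vehicle day 17 libraries. Every entinostat library was above every vehicle library, a log2 fold change of 1.37 ± 0.37 (2.59-fold, adjusted p = 0.0158). At day 10 it had 8.92, 8.75, 9.56 and 6.79 CPM with entinostat and 14.4, 4.15, 11.4 and 17.3 CPM with vehicle, and the groups overlapped. Cdt1, its partner in loading (chromosome 8, 122568015 to 122573130, Entrez 67177), had 69.5, 81.0, 48.1 and 61.1 CPM in entinostat day 17 libraries and 118, 67.2, 77.2 and 89.2 CPM in vehicle day 17 libraries. These overlapped, and the log2 fold change of -0.40 ± 0.19 did not pass (adjusted p = 0.139). Orc1, the largest subunit of the origin recognition complex, averaged 24.9 ± 6.28 CPM with entinostat and 13.9 ± 4.99 CPM with vehicle (0.83 ± 0.41, adjusted p = 0.169), and Orc6, a small subunit of that complex, differed by 0.26 ± 0.21 (95% interval -0.18 to 0.70). Of the exonic bases of Orc1, 10.8% also lie under another gene, so without strand its counts are uncertain.

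The MCM genes encode the subunits of the replicative helicase, and all 6 were higher with entinostat at day 17, by 0.36 to 0.66 on the log2 scale. Mcm3 (chromosome 1, 20802966 to 20820312, Entrez 17215) had 231, 161, 178 and 206 CPM in entinostat day 17 libraries, against 136, 118, 134 and 102 CPM in vehicle day 17 libraries (0.66 ± 0.16, adjusted p = 0.00648). Mcm4 (chromosome 16, 15623897 to 15637400, Entrez 17217), the MCM gene of smallest p, had 274, 259, 239 and 265 CPM in entinostat libraries, against 207, 174, 205 and 146 CPM in vehicle libraries (0.51 ± 0.11, adjusted p = 0.0031). The groups did not overlap in either gene.

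Mcm6 (chromosome 1, 128331575 to 128359705, Entrez 17219) had 290, 246, 305 and 298 CPM in entinostat day 17 libraries, against 211, 164, 199 and 164 CPM in vehicle day 17 libraries (0.62 ± 0.13, adjusted p = 0.00391). Mcm5 (chromosome 8, 75109468 to 75128439, Entrez 17218) had 259, 215, 237 and 220 CPM with entinostat, against 193, 144, 156 and 141 CPM with vehicle (0.55 ± 0.13, adjusted p = 0.00755). In both the lowest entinostat library stood above the highest vehicle library, replicate 1. Mcm7 averaged 175 ± 13.0 CPM with entinostat and 116 ± 26.5 CPM with vehicle (0.58 ± 0.15, adjusted p = 0.0128), with 12.6% of its exonic bases shared with other genes. Mcm2 had the smallest change, 236 ± 19.6 CPM with entinostat and 184 ± 28.0 CPM with vehicle (0.36 ± 0.12, adjusted p = 0.0464). Its groups overlapped, since 1 vehicle library reached 223 CPM and the lowest entinostat library had 213 CPM. The Mcm2 call was lost without any 1 of vehicle day 10 replicate 3, entinostat day 10 replicate 1, entinostat day 17 replicates 1, 3 and 4, and vehicle day 17 replicates 2, 3 and 4 (adjusted p between 0.0527 and 0.107).

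**Figure D2:**
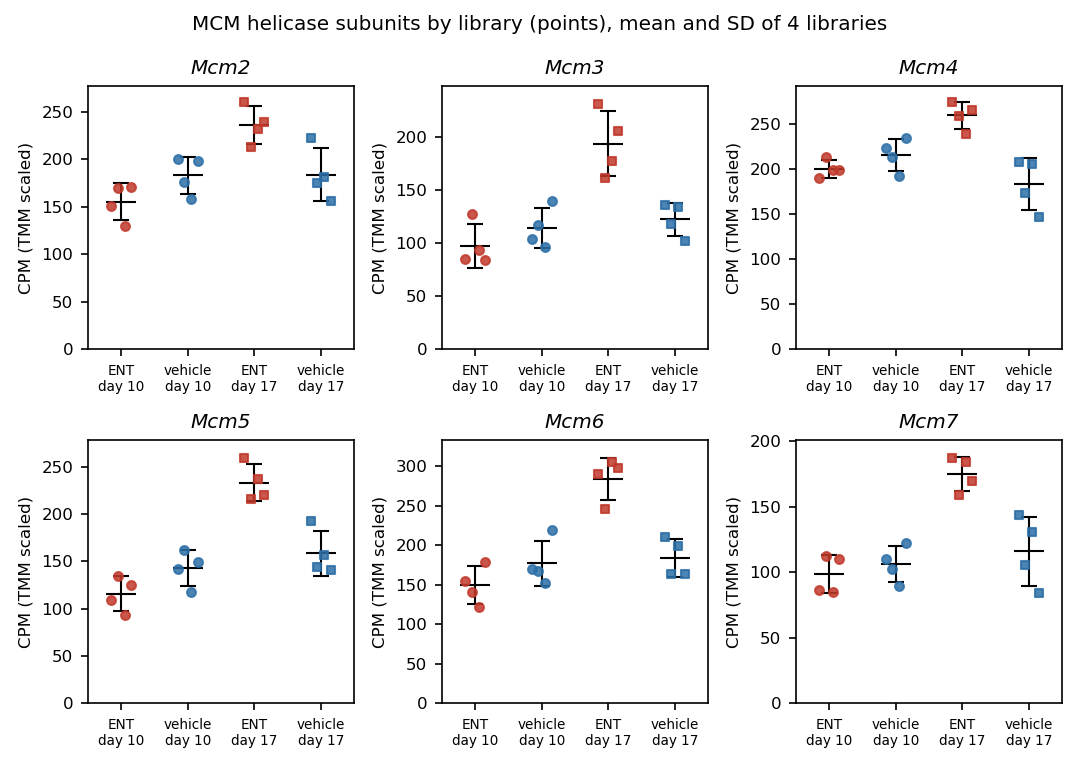
CPM of the 6 MCM genes in each library (points), with mean and SD of 4 libraries (bars), for entinostat (red) and vehicle (blue) at day 10 (circles) and day 17 (squares). In each panel the entinostat day 17 group has the highest mean, for example 233 CPM in Mcm5 against 159 CPM with vehicle.

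Divided by their exonic length, the 6 MCM genes ran from 34.0 to 72.2 CPM per kilobase in entinostat day 17 libraries, a ratio of 2.12 between the highest and the lowest gene. They ran from 26.2 to 51.0 CPM per kilobase in vehicle day 17 libraries (ratio 1.95), from 22.2 to 55.7 in entinostat day 10 libraries (2.51) and from 24 to 60 in vehicle day 10 libraries (2.5). Mcm4 was the highest per kilobase in all 4 groups.

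Of the 6 helicase activation genes 1 passed at day 17. Mcm10, which helps to turn the loaded MCM complex into an active helicase (chromosome 2, 4990724 to 5012791, Entrez 70024), had 41.8, 29.6, 46.5 and 40.03 CPM in entinostat day 17 libraries, against 14.4, 18.8, 21.4 and 7.54 CPM in vehicle day 17 libraries. The groups did not overlap, and the log2 fold change was 1.33 ± 0.38 (2.51-fold, adjusted p = 0.0214). Leaving out entinostat day 17 replicate 1 (adjusted p = 0.0508) or replicate 3 (adjusted p = 0.0503) ended the call. At day 10 Mcm10 had 12.3, 9.53, 9.87 and 3.04 CPM with entinostat and 9.17, 8.04, 9.09 and 10.5 CPM with vehicle. Gins1, a GINS subunit, had the largest fitted change of all members, 1.45 ± 0.55, but did not pass (adjusted p = 0.0749). It had 14.8, 9.15, 33.2 and 7.46 CPM with entinostat and 5.42, 6.35, 7.72 and 2.74 CPM with vehicle, and its highest value is in the shallowest library. Cdc45, the other helicase cofactor, had 43.7, 26.1, 58.1 and 44.4 CPM with entinostat and 29.0, 24.6, 27.3 and 15.8 CPM with vehicle (0.80 ± 0.44, adjusted p = 0.213). The GINS genes Gins2, Gins3 and Gins4 differed by 0.38 ± 0.46, 0.28 ± 0.33 and -0.03 ± 0.16, and 67.3% of the exonic bases of Gins2 lie under Gse1.

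None of the 6 clamp and clamp loader genes passed at day 17 by edgeR, and 3 of them had an unadjusted p under 0.05. Rfc3, a clamp loader subunit, had 49.5, 42.0, 54.7 and 56.0 CPM in entinostat day 17 libraries and 43.3, 28.6, 35.5 and 26.4 CPM in vehicle day 17 libraries (0.58 ± 0.22, adjusted p = 0.0707). Rfc1, the large subunit, had 145, 116, 116 and 116 CPM with entinostat and 100, 95.6, 107 and 114 CPM with vehicle (0.25 ± 0.10, adjusted p = 0.0876). Its groups did not overlap, by a margin of 1 pair of libraries. Pcna, the sliding clamp itself, had 136, 114, 138 and 128 CPM with entinostat and 116, 104, 106 and 102 CPM with vehicle (0.26 ± 0.11, adjusted p = 0.0951). Pcna has named pseudogenes, so its counts are uncertain. Rfc2, Rfc4 and Rfc5 differed by 0.07 ± 0.14, 0.39 ± 0.28 and 0.06 ± 0.17. Of these 3, each shares over 10% of its exonic bases with a neighbouring gene. By DESeq2, Pcna, Rfc1 and Rfc3 passed.

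Of the 8 polymerase and primase genes, 3 were higher at day 17. Pola1, the catalytic subunit of polymerase alpha (X chromosome, 93304766 to 93632387, Entrez 18968), had 114, 73.8, 139 and 104 CPM in entinostat day 17 libraries, against 66.8, 54.8, 45.0 and 80.9 CPM in vehicle day 17 libraries (0.77 ± 0.20, adjusted p = 0.0119). The groups overlapped by 1 entinostat library, at 73.8 CPM. At day 10 Pola1 had 77.3, 74.4, 70.6 and 60.9 CPM with entinostat and 41.2, 43.5, 61.9 and 54.9 CPM with vehicle (0.49 ± 0.20, adjusted p = 0.094), a difference that passed with library size alone, with limma-voom and sample quality weights, and with only the day 10 groups in the fit. Prim1, the catalytic primase subunit, had 59.8, 42.3, 59.7 and 59.4 CPM with entinostat at day 17 and 38.5, 24.1, 26.2 and 37.0 CPM with vehicle (0.80 ± 0.24, adjusted p = 0.0244). Pole, the catalytic subunit of polymerase epsilon, had 110, 114, 118 and 134 CPM with entinostat and 90.1, 49.8, 67.4 and 71.0 CPM with vehicle (0.77 ± 0.26, adjusted p = 0.0469). Neither gene overlapped between the groups. The Prim1 call was lost without any 1 of entinostat day 17 replicates 1, 3 and 4 and vehicle day 17 replicates 2 and 3 (adjusted p up to 0.0793), and that of Pole without any 1 of entinostat day 10 replicates 1 and 3, all 4 entinostat day 17 libraries and vehicle day 17 replicates 2, 3 and 4 (adjusted p up to 0.106). The accessory subunits Pola2, Prim2 and Pole2 differed by 0.09 ± 0.12, 0.41 ± 0.20 and 0.28 ± 0.30. The polymerase delta genes Pold1 and Pold2 were on the other side, at -0.26 ± 0.16 and -0.17 ± 0.23, and did not pass.

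In the group of flap nuclease, ligase and RPA, 0 of 5 passed at day 17 by edgeR and 2 had an unadjusted p under 0.05. Rpa1, the large subunit of the single-strand binding complex, had 212, 232, 189 and 205 CPM in entinostat day 17 libraries and 180, 175, 192 and 133 CPM in vehicle day 17 libraries (0.31 ± 0.11, adjusted p = 0.057). It passed in 16 of the 27 alternative fits, DESeq2 among them. Lig1, which seals lagging-strand fragments, had 109, 76.2, 73.0 and 89.5 CPM with entinostat and 81.1, 34.4, 72.3 and 34.3 CPM with vehicle (0.65 ± 0.29, adjusted p = 0.12). Fen1 had 120, 93.2, 64.7 and 102 CPM with entinostat and 106, 68.3, 71.8 and 38.1 CPM with vehicle (0.44 ± 0.23, adjusted p = 0.185). The groups overlapped in these 3 genes. Of the exonic bases of Fen1, 84.2% lie under Tmem258 and Gm10143, so without strand its reads cannot be told from theirs. The small subunits Rpa2 and Rpa3 differed by 0.16 ± 0.12 and -0.12 ± 0.20.

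All 5 nucleotide synthesis genes were on the positive side at day 17, and 2 passed. Rrm2, the regulatory subunit of ribonucleotide reductase that is made in S phase (chromosome 12, 24708254 to 24714146, Entrez 20135), had 187, 123, 138 and 147 CPM in entinostat day 17 libraries, against 87.6, 64.6, 83.6 and 60.7 CPM in vehicle day 17 libraries. The groups were well apart, with a log2 fold change of 1.00 ± 0.22 (2.00-fold, adjusted p = 0.00481). At day 10 Rrm2 had 61.7, 59.2, 37.3 and 57.9 CPM with entinostat and 58.4, 27.0, 31.7 and 53.6 CPM with vehicle, and the groups overlapped. Rrm1, the large subunit, had 240, 193, 201 and 215 CPM with entinostat at day 17, against 172, 138, 159 and 106 CPM with vehicle (0.56 ± 0.13, adjusted p = 0.007). Tyms, thymidylate synthase, had 68.2, 63.5, 54.7 and 59.0 CPM with entinostat and 44.5, 39.4, 49.7 and 22.3 CPM with vehicle (0.66 ± 0.23, adjusted p = 0.052). Its groups did not overlap, but the test did not pass by edgeR, and it passed in 14 of 27 alternative fits. A named pseudogene makes the counts of Tyms uncertain. Dut, the dUTPase, differed by 0.45 ± 0.17 (adjusted p = 0.0755) and Tk1, thymidine kinase of the cytosol, by 0.51 ± 0.38 (95% interval -0.28 to 1.29).

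Uhrf1 and Ccne1 were higher at day 17, and Ccne2 did not pass. Uhrf1, which recruits the maintenance DNA methyltransferase to newly copied DNA (chromosome 17, 56303337 to 56323486, Entrez 18140), had 179, 130, 171 and 189 CPM in entinostat day 17 libraries, against 123, 80.2, 108 and 80.9 CPM in vehicle day 17 libraries. The groups did not overlap (0.76 ± 0.18, adjusted p = 0.00589). At day 10 it had 57.3, 64.4, 53.7 and 74.3 CPM with entinostat and 84.3, 67.7, 50.1 and 79.2 CPM with vehicle. Ccne1, cyclin E1, a partner of Cdk2 at the start of S phase, had 60.8, 35.3, 26.5 and 45.8 CPM with entinostat at day 17 and 28.9, 13.2, 23.7 and 11.3 CPM with vehicle (1.14 ± 0.36, adjusted p = 0.0371). The lowest entinostat library lay under the highest vehicle library, and the call was lost without any 1 of entinostat day 17 replicates 1 and 4 and vehicle day 17 replicates 2, 3 and 4 (adjusted p up to 0.125). Ccne2, cyclin E2, had 17.04, 13.2, 14.9 and 32.6 CPM with entinostat and 9.48, 15.1, 15.96 and 14.8 CPM with vehicle (0.51 ± 0.44, adjusted p = 0.444).

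**Figure D3:**
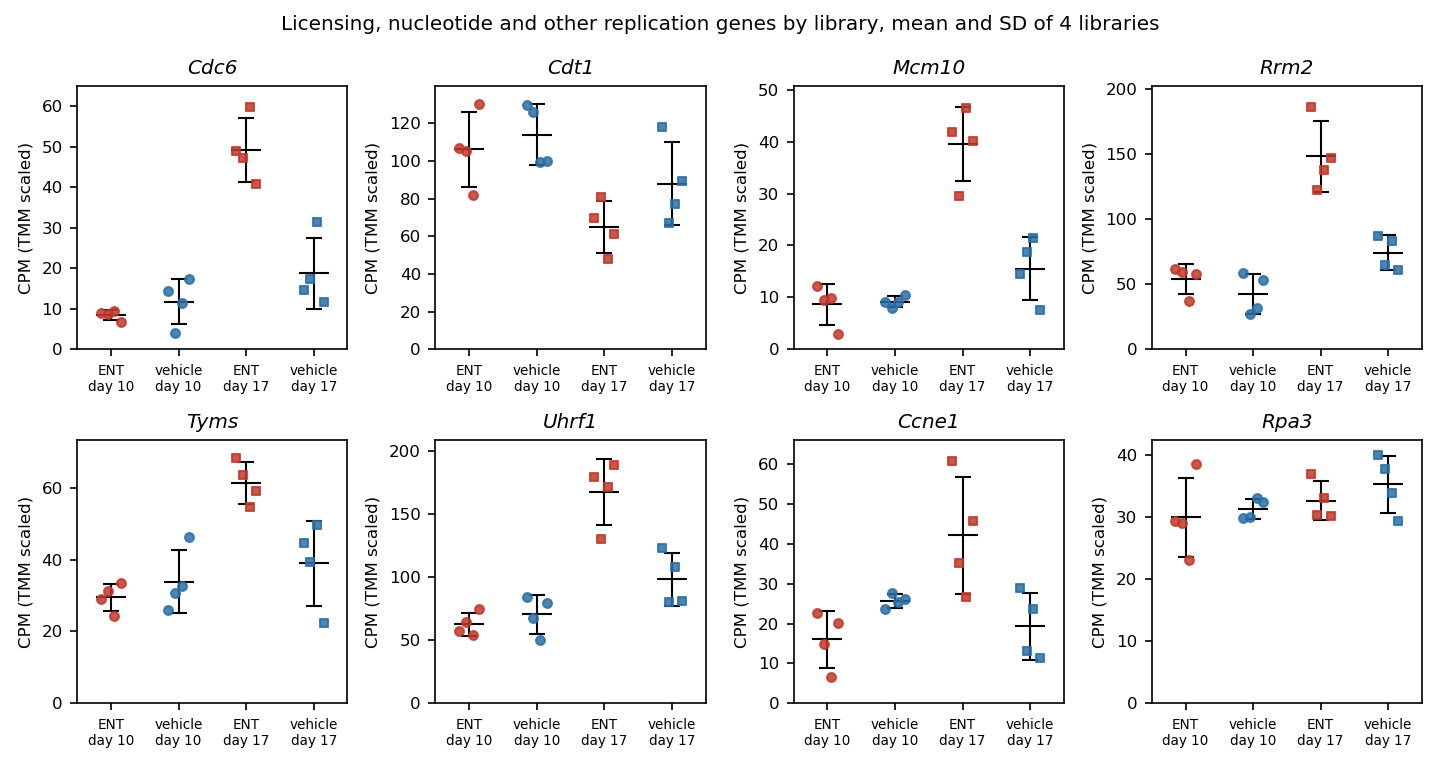
CPM in each library (points) with mean and SD of 4 libraries (bars) for 8 genes chosen to show members of different roles, with entinostat in red and vehicle in blue. Cdc6, Mcm10, Rrm2, Tyms and Uhrf1 have entinostat day 17 libraries above all others shown, Cdt1 has its lowest mean there (64.9 CPM), and Rpa3 has similar means in the 4 groups (30.1 to 35.3 CPM).

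The 12 members whose mean over the 4 groups was under 30 CPM had a median log2 fold change of 0.66 at day 17 with a median SE of 0.38, and 3 were higher. The 18 members between 30 and 100 CPM had a median of 0.44 (median SE 0.21), with 5 higher. The 13 members over 100 CPM had a median of 0.36 (median SE 0.13), with 7 higher. Over all tested genes 5.29% were higher at day 17, and the share of all genes at each of these levels was not counted.

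After 3 days of entinostat few replication genes differed from vehicle. At day 10, 0 of the 43 members were higher and 1 (2.33%) was lower, where 7.63% of all tested genes were higher and 6.93% were lower. By edgeR 3 members had an unadjusted p under 0.05. DESeq2 called 0 members higher and 1 lower, and over all 17414 genes 2297 higher and 1303 lower. The members' median log2 fold change was -0.12, against 0.06 over all tested genes and -0.17 over those of at least 16 CPM. All 6 MCM genes were slightly negative with TMM (-0.30 to -0.10) and RLE scaling (-0.25 to -0.05), but 2 of 6 were positive with library size alone and 4 of 6 with cyclic loess, so their direction at day 10 depends on the scaling. With library size alone 2 members, Rfc1 and Pola1, were higher and 0 were lower, and with cyclic loess 1, Rfc1, was higher and 0 were lower. Library size alone called 1596 of 17414 genes higher and cyclic loess 320. Over all members, 13 of 43 were positive with TMM and 25 of 43 with library size alone.

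Pold1, the catalytic subunit of polymerase delta (chromosome 7, 44532744 to 44548815, Entrez 18971), was the 1 member that passed. It had 83.7, 107, 79.6 and 85.8 CPM in entinostat day 10 libraries, against 126, 125, 110 and 166 CPM in vehicle day 10 libraries. It fell by 0.57 ± 0.16 on the log2 scale (adjusted p = 0.0251), with no overlap between the groups, where 12.4% of tested genes lay wholly below. The call was lost without any 1 of vehicle day 10 replicates 1, 2 and 4 and entinostat day 10 replicates 1 and 3 (adjusted p 0.055 to 0.0838), with library size alone (0.0733), with cyclic loess (0.178) and with the receptor read covariate (0.0655). Mcm5 had 109, 135, 93.4 and 126 CPM with entinostat and 142, 162, 117 and 150 CPM with vehicle, a log2 fold change of -0.30 ± 0.13 that did not pass (adjusted p = 0.12). Pole had 57.3, 58.4, 48.7 and 50.6 CPM with entinostat and 29.6, 28.8, 25.8 and 75.3 CPM with vehicle. In vehicle replicate 4 alone Pole was above the entinostat libraries, and without that library the log2 fold change of 0.43 ± 0.27 became 0.96 (adjusted p = 0.00529).

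Over time, 20 replication genes rose with entinostat. Between day 17 and day 10 in the entinostat groups, 20 of 43 members (46.5%) were higher and 1 (2.33%) was lower, where 3.26% of all tested genes were higher and 10.5% were lower. The members' median log2 fold change was 0.69, against 0.03 over all tested genes and -0.16 over those of at least 16 CPM. All 6 MCM genes and all 5 nucleotide synthesis genes rose, with 2 of 6 helicase activation genes, 2 of 6 clamp loader genes, 2 of 8 polymerase and primase genes, Cdc6, Uhrf1 and Ccne1. For 21 members every day 17 library lay above every day 10 library, as it did for 8.94% of tested genes. Dut was the member that passed with overlapping groups, while Pcna and Lig1 did not overlap and did not pass.

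Cdc6 had the largest rise, 2.52 ± 0.39 (5.73-fold, adjusted p = 0.000307), with 40.7 to 59.7 CPM at day 17 and 6.79 to 9.56 CPM at day 10. Mcm10 rose by 2.19 ± 0.40 (4.57-fold, adjusted p = 0.00112). Uhrf1, the member of smallest p, averaged 167 ± 26.0 CPM at day 17 and 62.4 ± 9.12 CPM at day 10 (1.41 ± 0.18, adjusted p = 6.29e-05). Mcm5 followed, with 233 ± 19.7 CPM at day 17 and 116 ± 18.3 CPM at day 10 (1.01 ± 0.13, adjusted p = 8.87e-05). Of the other MCM genes, Mcm3 rose by 1.00 ± 0.16, Mcm6 by 0.92 ± 0.14, Mcm7 by 0.82 ± 0.15, Mcm2 by 0.60 ± 0.12 and Mcm4 by 0.38 ± 0.11. The Mcm4 call (adjusted p = 0.0226) was lost without any 1 of entinostat day 10 replicates 1, 3 and 4 and entinostat day 17 replicates 1 and 4 (adjusted p up to 0.0767).

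Tk1, the salvage kinase for thymidine, had 46.0, 39.0, 31.5 and 54.3 CPM in entinostat day 17 libraries and 12.6, 10.0, 8.02 and 25.4 CPM in entinostat day 10 libraries (1.61 ± 0.39, adjusted p = 0.00962). Rrm2 rose by 1.46 ± 0.23, Tyms by 1.06 ± 0.23, Rrm1 by 0.70 ± 0.13 and Dut by 0.70 ± 0.17. Dut did not pass once entinostat day 17 replicate 4 was left out (adjusted p = 0.0664). Pole rose by 1.15 ± 0.26 and Prim2, the large primase subunit, by 0.76 ± 0.20, a call lost without any 1 of entinostat day 10 replicates 1 and 2 and day 17 replicates 1 and 4 (adjusted p up to 0.0802). Ccne1 rose by 1.41 ± 0.37, and without entinostat day 17 replicate 1 its adjusted p was 0.0713. Cdc45 rose by 1.38 ± 0.45 at an adjusted p of 0.0494, which was lost without any 1 of 12 libraries, the 4 kept being vehicle day 10 replicates 3 and 4, entinostat day 10 replicate 4 and entinostat day 17 replicate 2. Rfc3 and Rfc4 rose by 0.79 ± 0.22 and 0.96 ± 0.28. Those calls were lost without any 1 of entinostat day 10 replicates 1 and 3 and day 17 replicates 1 and 4, and Rfc4 also without day 10 replicate 2 (adjusted p up to 0.0757 for Rfc3 and 0.105 for Rfc4).

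Cdt1 moved the other way. It fell by 0.67 ± 0.19 on the log2 scale (adjusted p = 0.0217), with 69.5, 81.0, 48.1 and 61.1 CPM in entinostat day 17 libraries and 107, 106, 82.0 and 130 CPM in entinostat day 10 libraries. The highest day 17 value was just under the lowest day 10 value. The call was lost with cyclic loess (adjusted p = 0.119) and without entinostat day 10 replicate 4 (0.0685), entinostat day 17 replicate 3 (0.0527) or replicate 4 (0.0632). With vehicle, Cdt1 had 118, 67.2, 77.2 and 89.2 CPM at day 17 and 130, 126, 99.7 and 100 CPM at day 10, a log2 fold change of -0.37 ± 0.18 (adjusted p = 0.204). Cdt1 protein is destroyed in S phase by a clamp-dependent ligase, which transcript levels do not report.

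With vehicle, few replication genes passed over the same interval. Between day 17 and day 10, 1 of 43 members (2.33%) was higher and 0 were lower, where 1.89% of all tested genes were higher and 3.63% were lower. The members' median log2 fold change was 0.14, against 0.13 over all tested genes and -0.10 over those of at least 16 CPM. Rrm2 was the member that passed, with 87.6, 64.6, 83.6 and 60.7 CPM at day 17 and 58.4, 27.0, 31.7 and 53.6 CPM at day 10 (0.80 ± 0.23, adjusted p = 0.0463). The lowest day 17 library stood just above the highest day 10 library. The call was lost without any 1 of vehicle day 10 replicates 2 and 3, all 4 vehicle day 17 libraries, entinostat day 10 replicates 1 and 2 and entinostat day 17 replicate 4 (adjusted p up to 0.149), with no filter on low counts (0.0558), with only the vehicle groups in the fit (0.0678) and with the receptor read covariate (0.0551). Without vehicle day 17 replicate 1, 0 members were higher and 3 were lower, namely Cdt1 (adjusted p = 0.0364), Mcm4 (0.0456) and Rpa1 (0.0486). That fit called 1217 of 18073 genes higher and 1482 lower. Pole had 90.1, 49.8, 67.4 and 71.0 CPM at day 17 and 29.6, 28.8, 25.8 and 75.3 CPM at day 10 (0.80 ± 0.26, adjusted p = 0.0757). The MCM genes were between -0.23 and 0.15, and the 95% interval was -0.12 to 0.43 for Mcm5 and -0.22 to 0.34 for Mcm6. For Mcm4, the lowest of them, the interval was -0.45 to -0.01, and the edgeR test did not pass after adjustment (adjusted p = 0.175).

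**Figure D4:**
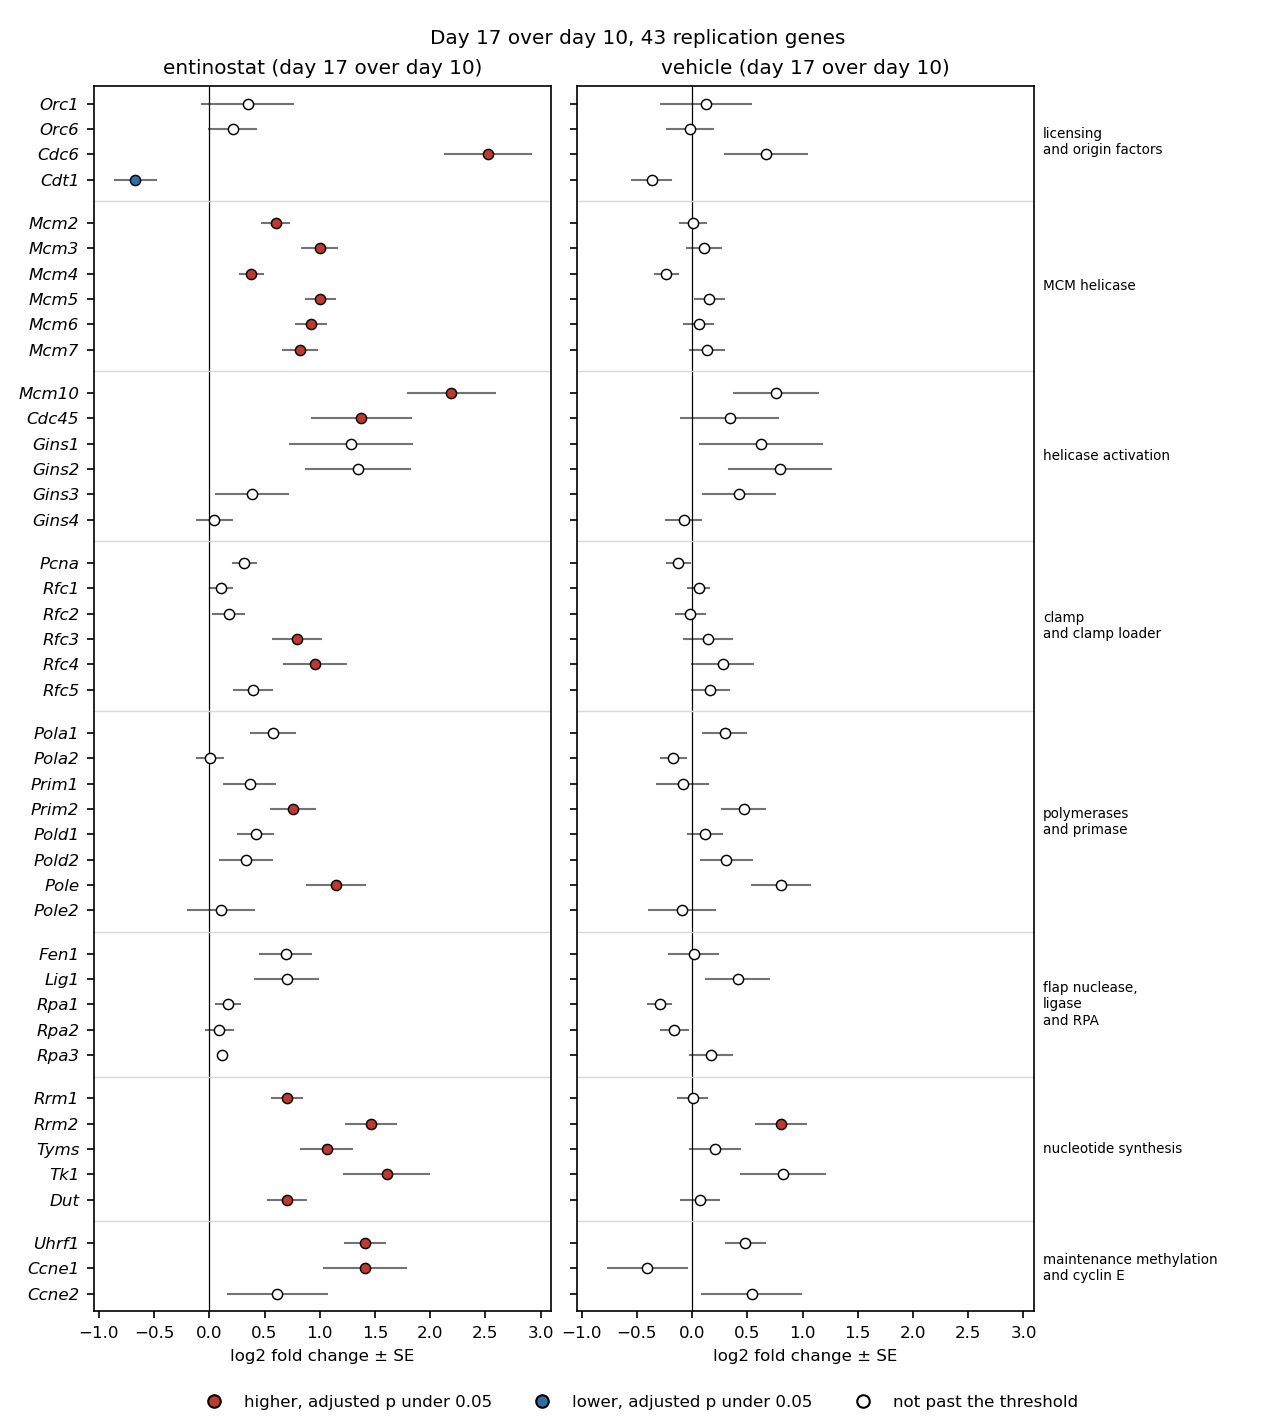
Log2 fold change of day 17 over day 10 with its SE for each of the 43 genes by role, with entinostat (left) and vehicle (right); filled points passed an adjusted p of 0.05, and Rpa3 with entinostat has no SE. With entinostat 20 members are filled to the right of 0 and Cdt1 to the left; with vehicle Rrm2 alone is filled.

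The difference between the entinostat effects on the 2 days was tested directly. For 1 of 43 members (2.33%) the effect was higher at day 17 than at day 10 and for 0 it was lower, where 0.218% of all tested genes were higher and 0.253% were lower. By edgeR 17 members had an unadjusted p under 0.05, and the share of all genes that did so was not counted. DESeq2 gave an adjusted p to 40 members and called 13 higher and 0 lower. Of the 17414 genes fitted, some of which likewise had no adjusted p, it called 329 higher and 234 lower. The member called by edgeR was Mcm5, with an entinostat effect of 0.55 at day 17 and -0.30 at day 10 and a difference of 0.85 ± 0.19 (adjusted p = 0.0494). The call was lost without any 1 of 14 libraries, all but entinostat day 17 replicate 2 and vehicle day 17 replicate 1 (adjusted p up to 0.119), and with replicate numbers as a block over all libraries (0.0683). Mcm6 stood next, with a difference of 0.86 ± 0.19 at an adjusted p of 0.0503. With replicate numbers as a block within each day both Mcm5 and Mcm6 passed. The 6 MCM differences were between 0.59 and 0.89, and those of the 5 nucleotide synthesis genes between 0.63 and 0.85. Cdc6 (1.85 ± 0.53, adjusted p = 0.125) and Ccne1 (1.82 ± 0.51, adjusted p = 0.121) had the largest differences, with wide errors. The median of the members was 0.46, against -0.20 over all tested genes and -0.1 over those of at least 16 CPM. For the other 42 members the difference itself did not pass.

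Other genes of the pathway, from lists not restricted to the 43, moved less uniformly. Of 64 further replication and nucleotide genes, all tested, 10 were higher and 4 lower with entinostat at day 17, with a median of 0.09. Over all tested genes 5.29% were higher and 13.0% were lower. Among 17 further origin and firing factors 4 were higher: Wdhd1, a fork protein that links primase to the helicase, averaged 94.4 ± 15.98 CPM with entinostat and 53.9 ± 4.78 CPM with vehicle (0.80 ± 0.17, adjusted p = 0.00347). Topbp1, a firing factor, averaged 199 ± 20.3 CPM with entinostat and 144 ± 13.1 CPM with vehicle (0.47 ± 0.11, adjusted p = 0.00458), and its effect also differed between days (0.69 ± 0.15, adjusted p = 0.0455). Gmnn, geminin, the inhibitor of Cdt1, rose by 0.65 ± 0.17 (adjusted p = 0.0128), and Ticrr was the fourth. Of 11 further polymerase and fragment genes, Atad5, which unloads the clamp, was higher (0.75 ± 0.22, adjusted p = 0.0262), Pole4, a small subunit of polymerase epsilon, was lower (-0.39 ± 0.10, adjusted p = 0.0142), and Pold4 differed by -0.40 ± 0.19 without passing.

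Of 7 histone deposition and maintenance genes 3 were higher at day 17, namely Hells, a remodeller needed for DNA methylation (0.81 ± 0.19, adjusted p = 0.00641), Chaf1b, a subunit of chromatin assembly factor 1 (0.72 ± 0.21, adjusted p = 0.0245), and Dnmt1, the maintenance methyltransferase. Asf1a, a histone chaperone, was lower, with 19.3 ± 6.86 CPM with entinostat and 38.5 ± 4.96 CPM with vehicle (-0.93 ± 0.23, adjusted p = 0.00987). Of 29 further nucleotide genes 2 were higher and 2 were lower, where 5.29% of all tested genes were higher and 13.0% were lower. Shmt1, a serine hydroxymethyltransferase of the folate cycle that serves thymidylate synthesis, was higher (1.06 ± 0.23, adjusted p = 0.00422). Samhd1, which breaks down deoxynucleotides, was lower, with 221 ± 33.8 CPM with entinostat and 308 ± 26.7 CPM with vehicle (-0.48 ± 0.11, adjusted p = 0.00657). At day 10, 1 of the 64 was higher (Atad5, 0.77 ± 0.22) and 7 were lower, where 7.63% of all tested genes were higher and 6.93% were lower. With entinostat over time 15 rose and 5 fell, Samhd1 among them (-0.67 ± 0.11, adjusted p = 0.000678), where 3.26% of all tested genes rose and 10.5% fell. With vehicle over time 1 rose and 2 fell, where 1.89% of all tested genes rose and 3.63% fell.

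Of 14 E2F and pocket protein genes 0 passed at day 17 by edgeR, and 3 had an unadjusted p under 0.05. Over all tested genes 5.29% were higher and 13.0% were lower. Tfdp1, the partner of E2F factors, differed by 0.54 ± 0.19 (adjusted p = 0.0519), E2f7, an E2F repressor, by 0.87 ± 0.41 and Rb1 by 0.40 ± 0.18. With entinostat over time E2f1 rose by 2.04 ± 0.44 (adjusted p = 0.00438), E2f7 by 1.95 ± 0.43 and Tfdp1 by 0.81 ± 0.19. With vehicle over time the pocket protein genes Rb1 and Rbl2 fell by 0.70 ± 0.18 (adjusted p = 0.0329) and 0.54 ± 0.09 (adjusted p = 0.00423).

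Genes of mitosis were read beside those of replication. With vehicle over time 6 of 20 mitosis genes were higher with a median of 0.96, where 1.89% of all tested genes were higher. The replication genes had a median of 0.14, against 0.13 over all tested genes. With entinostat over time 16 of 20 mitosis genes were higher (median 1.53), where 3.26% of all tested genes were higher. At day 17, 4 of 20 were higher with entinostat than with vehicle (median 0.59), where 5.29% of all tested genes were higher. The 4 were Mki67, Top2a, the topoisomerase of replicated DNA (0.81 ± 0.21, adjusted p = 0.011), Bub1b, a spindle checkpoint kinase (1.10 ± 0.29, adjusted p = 0.0133), and Kif11, a spindle motor (0.76 ± 0.24, adjusted p = 0.0361). At day 10 none of the 20 passed by edgeR, 2 had an unadjusted p under 0.05 and the median was 0.08.

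Summed over the 43 members, expression was 3861 to 4582 CPM in entinostat day 17 libraries (4203 ± 311.9, SD, n = 4) and 2650 to 3686 CPM in vehicle day 17 libraries (3104 ± 463.6). At day 10 it was 2451 to 2955 CPM with entinostat (2762 ± 238.6) and 2653 to 3252 CPM with vehicle (2978 ± 249.4). The entinostat day 17 libraries stood above all 12 others, and the highest vehicle day 17 library was replicate 1, the deepest of the series. The summed mitosis genes averaged 1298 ± 250.2 CPM in entinostat day 17 libraries, 857.8 ± 132.3 CPM in vehicle day 17 libraries, 475.2 ± 75.6 CPM in entinostat day 10 libraries and 466.5 ± 157.2 CPM in vehicle day 10 libraries.

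**Figure D5:**
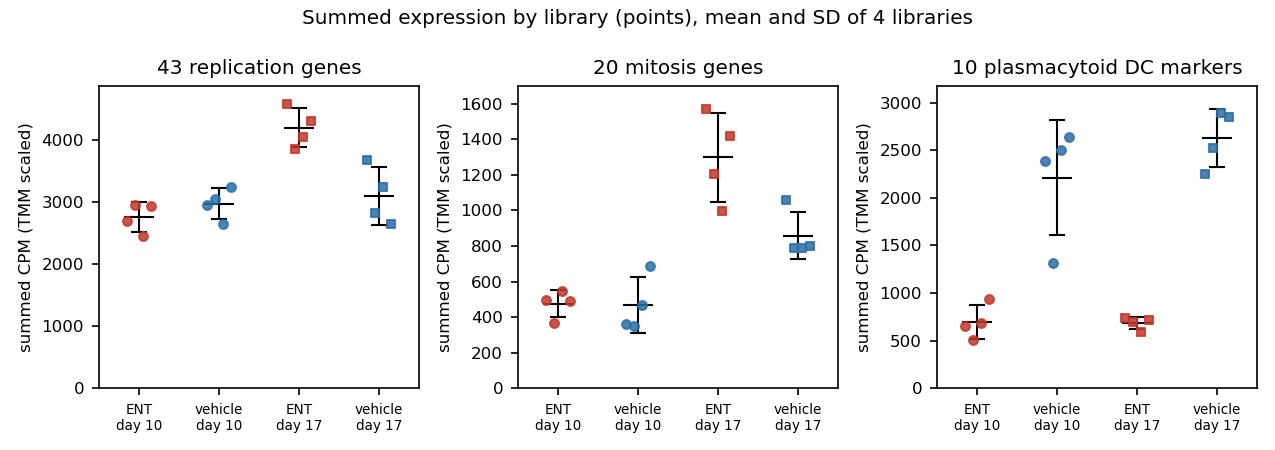
Summed CPM per library (points), with mean and SD of 4 libraries (bars), for the 43 replication genes, 20 mitosis genes and 10 plasmacytoid dendritic cell markers, with entinostat in red and vehicle in blue. The first 2 panels are highest in entinostat day 17 libraries (means 4203 and 1298 CPM), and the summed dendritic cell markers are lower with entinostat on both days.

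Markers of T cells and of other cells moved with treatment and over time, and their part in the replication results was not tested. The 7 T cell markers were all on the positive side at day 17, with a median log2 fold change of 0.33; 6 had an unadjusted p under 0.05 and 0 passed by edgeR after adjustment. At day 10, 1 of the 7 was on the positive side (median -0.17), and in the difference between days all 7 were (median 0.55, against 0.46 for the replication genes), with 0 passing after adjustment and 6 at an unadjusted p under 0.05. The 10 plasmacytoid dendritic cell markers summed to 595.5 to 740.5 CPM in entinostat day 17 libraries and 2250 to 2895 CPM in vehicle day 17 libraries, and to 510.0 to 940.1 CPM with entinostat and 1316 to 2637 CPM with vehicle at day 10. On each day 9 of 10 were lower with entinostat, where 6.93% of all tested genes were lower at day 10 and 13.0% at day 17. The other marker was on the positive side at day 10 (1.98), and at day 17 all 10 were negative. With entinostat over time 1 of the 10 was higher and 5 were lower, where 3.26% of all tested genes were higher and 10.5% lower. All 10 macrophage and monocyte markers summed to 51.4 to 77.0 CPM in entinostat day 17 libraries and 220.7 to 277.1 CPM in vehicle day 17 libraries, and at day 10 to 45.6 to 92.0 CPM with entinostat and 80.35 to 202.6 CPM with vehicle, where C1qc was at 0. Of the 7 macrophage and monocyte markers that could be tested, 0 were higher and 3 lower at day 17, and 1 was higher and 2 lower at day 10, so the members of this list did not move one way. Epithelial markers, which the tumour cells may share, summed to 86.7 to 193.4 CPM with entinostat, with Cldn4 at 0, and 173.9 to 334.0 CPM with vehicle at day 17, and to 113.5 to 158.0 CPM with entinostat and 155.8 to 259.9 CPM with vehicle at day 10. Of the 4 epithelial markers that could be tested, 2 were positive and 2 negative at day 17. At day 10, 3 were positive and 1 negative (median 0.59), so this list did not move one way either. The 7 fibroblast and endothelial markers summed to 208.9 to 505.1 CPM with entinostat and 292.2 to 1498 CPM with vehicle at day 17. The 6 B cell markers then summed to 40.1 to 81.3 CPM with entinostat and 28.3 to 75.1 CPM with vehicle. Cd4 had 5.47 to 9.95 CPM with entinostat and 43.8 to 54.8 CPM with vehicle at day 17, and 5.21 to 14.1 CPM with entinostat and 17.9 to 38.4 CPM with vehicle at day 10. Between day 17 and day 10 with vehicle, 4 of 7 fibroblast and endothelial markers were higher (median 2.94), where 1.89% of all tested genes were. The 7 tested macrophage and monocyte markers were all positive (median 1.26) and the 7 T cell markers all negative (median -0.3), with 0 passing. Over the same days with entinostat these 3 medians were 0.93, 0.1 and 0.2. In such bulk libraries fewer cells of a type and less RNA per cell cannot be told apart, nor can more cycling cells and more transcript per cell. Counts in 1432 chemosensory receptor genes (olfactory and vomeronasal), not known to be active in T cells, averaged 4776 ± 1201 CPM in entinostat day 17 libraries and 3269 ± 1937 CPM in vehicle day 17 libraries, and 3653 ± 2248 CPM with entinostat and 1597 ± 646.5 CPM with vehicle at day 10. With the log2 of these reads as a covariate, 19 members were higher and 0 lower at day 17, where 962 of 17414 genes were higher and 1906 lower.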

How the data were processed

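RNA of 16 sorted CD8 T cell samples, 4 in each of 4 groups, was amplified with a SMART-seq v4 kit and made into libraries with Nextera XT, per the labels' protocols, a method that keeps no strand. The authors deposited raw counts of exonic reads for 24028 genes, and the submitters' processing notes list STAR and mm10. How reads were counted, with which annotation and with duplicates kept or not, is not given in the sources used. The 3 rows with no symbol are no members.

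From these counts, genes with enough reads (edgeR's filterByExpr, minimum count 10) left 17414 genes. TMM scaling and edgeR 4.0.16 (R 4.3.3) quasi-likelihood tests were fitted over all 4 groups (12 residual degrees of freedom, common BCV 0.38), with Benjamini-Hochberg adjustment over all genes of each of 5 comparisons at 0.05. Alternatives used DESeq2 1.42.0, limma 3.58.1, other scalings and filters, replicate numbers as a block, reads in 1432 receptor genes as a covariate, and each library left out. The scripts were tested on simulated data. Total counts limit precision, and PCR reads without molecular identifiers make counting intervals too narrow.

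Members and lists were chosen with earlier results of these data known. Genes given by library were the 3 of smallest p at day 17 in each role group (2 in groups of 3 or fewer) and the 2 of smallest p in each other comparison; related genes were named up to 3 a list by smallest p. Ticrr, Dnmt1, Mki67, E2f1 and Rbl2 were named after their values were seen, to complete short counts. The other called members of the list of further nucleotide genes are not reported here by name.

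Groups share replicate numbers, and whether these pair samples was checked by the correlation of same-numbered deviations from group means. At day 10 it was 0.259, 0.26, 0.24 and 0.27 over genes of at least 16 CPM, but 0.18, 0.033, 0.114 and 0.057 over all tested genes, and in no other comparison was every pair above 0.1. The labels do not say what the numbers mean, so the fits without a block are reported.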

Additional observations from a re-analysis of the deposited data

Results flagged for a closer look

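In 7 of the 172 sets of 4 libraries checked (43 members in 4 groups), 1 library stood apart from the other 3 by more than the 95% critical value of Dixon's test, which chance does in about 1 set in 20. Prim1 was at 55.2 CPM in entinostat day 10 replicate 4, where the others had 37.6 to 39.8 CPM, and at 42.3 CPM in entinostat day 17 replicate 2, where the others had 59.4 to 59.8 CPM. Rrm2 was at 37.3 CPM in entinostat day 10 replicate 3 (others 57.9 to 61.7 CPM). Rfc1 was at 145 CPM in entinostat day 17 replicate 1, with the others at 116 CPM. Pole was at 75.3 CPM in vehicle day 10 replicate 4 (others 25.8 to 29.6 CPM), the library without which Pole passed at day 10. Lig1 was at 22.6 CPM in vehicle day 10 replicate 3 (others 46.7 to 49.4 CPM), and Rpa2 at 120 CPM in vehicle day 17 replicate 1 (others 86 to 87.1 CPM).

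For Mcm5 the entinostat effect differed between day 17 and day 10 by 0.85 on the log2 scale in the direct test of the difference by edgeR. The call was lost without any 1 of 14 libraries (adjusted p up to 0.119) and with replicate numbers as a block over all libraries.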

How the results depend on the processing

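The count of members passing at day 17 was 15. It was 27 with cyclic loess, 24 with DESeq2, 27 with limma-voom and sample quality weights and 25 with a minimum count of 50. All the members called were higher. Over all 17414 tested genes, 922 were higher in the reported fit, 1193 with cyclic loess, 1745 with DESeq2 and 2119 with quality weights. A minimum count of 50 gave 1023 higher of 11401 genes. Leaving out 1 library gave 10 (entinostat day 17 replicate 1) to 19. The fit that gave 10 called 579 of 17839 genes higher. A count of 19 came without entinostat day 10 replicate 4 (1395 of 18045 genes higher) and without vehicle day 17 replicate 1 (590 of 18073). At day 10 the count of 1 (0 higher, 1 lower) became 2 with library size alone (2 higher, 0 lower) and 5 with quality weights (1 higher, 4 lower). It was 2 with a minimum count of 50 or with only those groups fitted (1 higher, 1 lower each). The count was 0 with the receptor covariate, and 0 to 1 with a library left out. Over all 17414 tested genes, library size alone gave 1596 higher and 504 lower, and quality weights gave 3576 higher and 3170 lower. The minimum count of 50 gave 712 higher and 620 lower of 11401 genes, and only those groups gave 704 and 754 of 13753. The direction of the member count at day 10 turned to 1 higher and 0 lower with cyclic loess and without vehicle day 10 replicate 4. Over all genes, 320 were higher and 450 lower of 17414 with cyclic loess. They were 1059 and 766 of 18099 without that library. With entinostat over time the count of 21 was 14 to 23 with a library left out, 14 being without entinostat day 17 replicate 4. That fit called 350 of 17717 genes higher and 1398 lower. With vehicle over time the count of 1 (1 higher, 0 lower) became 2 with DESeq2 (2 higher, 0 lower) and 4 with quality weights (3 higher, 1 lower). It was 0 with no filter, the receptor covariate or only those groups, and 0 to 4 with a library left out. Over all 17414 genes, DESeq2 gave 1030 higher and 1128 lower, and quality weights gave 1316 and 1488. The member count was 0 higher and 3 lower without vehicle day 17 replicate 1, where 1217 of 18073 genes were higher and 1482 lower. It was 3 higher and 1 lower without vehicle day 10 replicate 4, where 697 of 18099 genes were higher and 996 lower. For the difference between days the count of 1 became 4 with RLE scaling, 3 with library size alone, cyclic loess or the receptor covariate, and 13 with DESeq2. It was 9 with quality weights, 0 with no filter, 10 with a minimum count of 50, and 0 to 3 with a library left out. All the members called were higher. Over all 17414 genes, 38 were higher in the reported fit, 76 with RLE scaling, 62 with library size alone and 72 with cyclic loess. The receptor covariate gave 79, DESeq2 329 and quality weights 119, and a minimum count of 50 gave 164 of 11401. For the difference, DESeq2 left some of the genes fitted without an adjusted p. With replicate numbers as a block the counts were 1 at day 10, 16 at day 17, 1 and 21 over time with vehicle and entinostat, and 0 for the difference. With the block within each day they were 1, 17 and 2 at day 10, at day 17 and for the difference, and that block could not be fitted over time. The block over all libraries called 675 of 17414 genes higher and 886 lower at day 10. At day 17 it called 694 higher and 2030 lower. Over time it called 298 higher and 560 lower with vehicle, and 495 higher and 1646 lower with entinostat. For the difference it called 23 higher and 16 lower. The block within each day called 418 higher and 742 lower at day 10. At day 17 that block called 625 higher and 1837 lower, and for the difference 20 higher and 14 lower. The causes were not tested. Depth limits the lowest members, which had as few as 6 counts in a library.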
